A study of Mus musculus with 6 samples.

Results

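The long noncoding RNAs Malat1, Neat1, H19, Meg3 and Gm26917 were followed through 6 single-cell libraries of mouse breast tumours. The 5 were taken by gene symbol, each symbol counted once, out of 27933 genes listed, and they were chosen by their measured levels, on the difference of Malat1, H19 and Gm26917 between treated and control libraries. The tumours were grown from 4T1 cells, a mammary carcinoma line of Balb/c origin, and every library was made by Drop-seq, which marks captured RNA by barcode, for the cell, and by a random tag, the UMI, for the molecule. In the 3 libraries called FVIO-MHT 1, 2 and 3, iron oxide nanorings (FVIOs) had been injected at 0.1 mg per cm3 of tumour, and an alternating field of 365 kHz had then been applied for 10 min, 24 hours before the tumours were taken. The 3 libraries called PBS 1, 2 and 3 came from the control tumours, which were treated with PBS and are listed with the same 24 hours. One protocol text covers all 6 samples and does not say if control tumours were placed in the field. The labels do not tie replicates to separate mice, and the p-values therefore cover only library-to-library spread, which may be technical.

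Malat1 and Neat1 are neighbouring nuclear RNAs. Malat1 lies in nuclear speckles, which hold splicing factors, and Neat1 is the scaffold of paraspeckles, nuclear bodies that retain certain RNAs and proteins. H19 and Meg3 are imprinted RNAs transcribed from the maternal chromosome, each beside a paternally expressed growth gene (Igf2 and Dlk1). Both are abundant in the embryo, and H19 is mostly silenced in adult tissues. Gm26917 is an annotated RNA with no settled function that lies beside ribosomal RNA sequence.

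The members were read over the 6730 barcodes with at least 200 detected genes, 332, 1049 and 2325 in the FVIO-MHT libraries and 1080, 1462 and 482 in the PBS libraries. Together the 5 RNAs held 2.54%, 1.44% and 0.942% of the UMIs of these barcodes in FVIO-MHT 1, 2 and 3 and 2.42%, 3.38% and 2.68% in PBS 1, 2 and 3. The labels name breast cancer cells, but tumour epithelial-like barcodes, with keratins and Epcam, were 2223 of the 6730, and immune, stromal and skin cells made up much of the rest. Cell classes came from clusters drawn without the 5 members, so that no member defined the class it was measured in. FVIO-MHT 1 stood apart: 265 of its 332 barcodes were neutrophil-like, none was tumour epithelial-like, and no barcode had more than 716 genes. FVIO-MHT 3 also differed, with 1200 of its 2325 barcodes in an unnamed cluster led by haemoglobin genes with tumour genes next (median 329 UMIs over the cluster). PBS 2 and PBS 3 shared 33 barcode sequences among those kept, and 28 of these fell in the same class in both libraries, while other pairs of libraries shared at most 1. Library totals ran from 678337 to 2207534 UMIs, and the median kept barcode held between 400 and 834 UMIs.

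Over whole libraries, Malat1, H19 and Gm26917 were lower in the FVIO-MHT group by their means, and Neat1 and Meg3 higher. These levels chose the members and are given as a description. Malat1 stood at 23310, 13565 and 8464 CPM (UMIs per 1000000 UMIs of the library's kept barcodes) in FVIO-MHT 1, 2 and 3 and at 22702, 32724 and 25623 CPM in PBS 1, 2 and 3, and the groups overlapped through FVIO-MHT 1 alone. Neat1 stood at 1998, 451 and 511 CPM against 298, 427 and 478 CPM. Outside the unnamed clusters FVIO-MHT 3 held 8257 CPM of Malat1, 482 of Neat1, 36.7 of H19, 225 of Meg3 and 220.4 CPM of Gm26917, beside 8464, 511, 31.5, 176 and 241 CPM with them. Without FVIO-MHT 1 the log2 difference of Neat1 went from 1.83 to 0.24, and that of Malat1 from −0.41 to −1.32.

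H19 held 0, 29 and 55 UMIs in the FVIO-MHT libraries and 83, 615 and 137 in the PBS libraries, which is 0, 32.2 and 31.5 CPM against 94.3, 331 and 291 CPM. The 0 in FVIO-MHT 1 allows up to 16.6 CPM at 3 counts. This library held no tumour epithelial-like and only 3 fibroblast-like barcodes, the classes with the highest mean H19. Gm26917 stood at 82.8, 181 and 241 CPM against 1130, 327 and 319 CPM. For these 2 members the groups did not overlap, FVIO-MHT being lower, and the same was true of 9.46% of the 8603 genes tested, with 3.17% in the opposite order. Meg3, at 44.1, 149 and 176 CPM against 7.95, 10.8 and 78.6 CPM, overlapped. The fitted log2 differences were −3.27 ± 0.79 for H19, −1.66 ± 0.63 for Gm26917 and 2.13 ± 0.87 for Meg3 (SE), the last being 3.78 without PBS 3. Of all 8603 genes edgeR called none (percent called 0), with 451 at an unadjusted p under 0.05, and DESeq2 called 185.

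**Figure D1:**
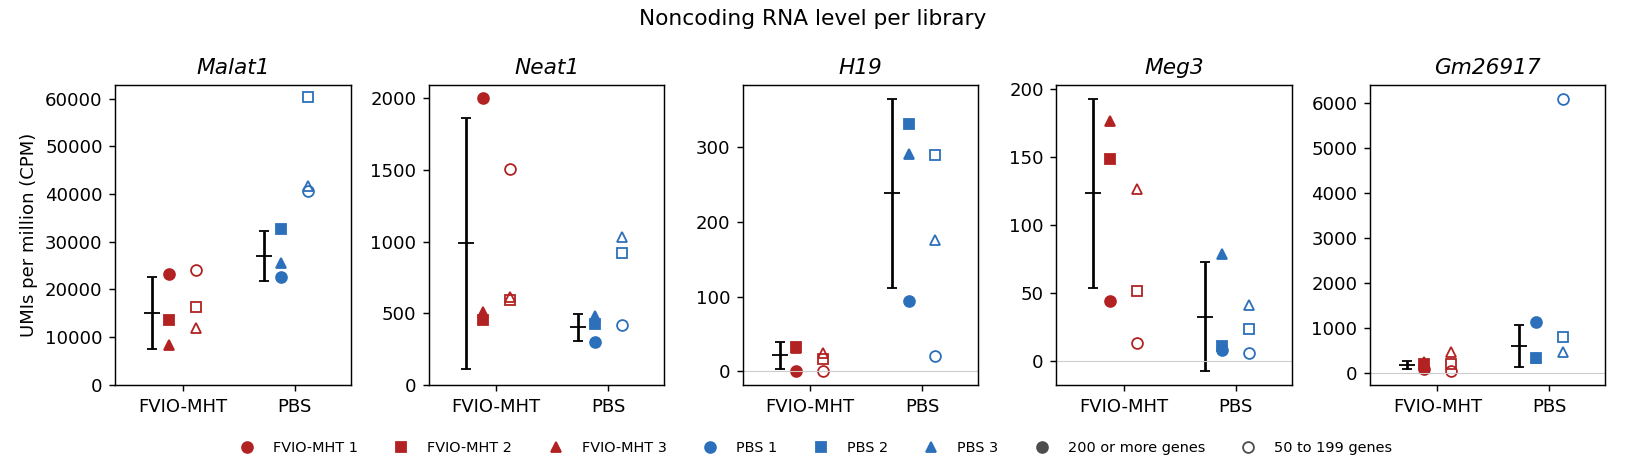
Each panel plots 1 RNA in CPM (y axis, linear) for the 3 FVIO-MHT and 3 PBS libraries, with filled symbols for barcodes with 200 or more genes, open symbols for barcodes with at least 50 but under 200 genes, and black bars for the mean ± SD of the filled symbols (n = 3). H19 and Gm26917 show filled symbols that do not overlap between groups, Malat1 overlaps through FVIO-MHT 1, and the open symbol of PBS 1 stands at 6095 CPM of Gm26917.

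Malat1 (ENSMUSG00000092341) is a single-exon gene on the minus strand of chromosome 19, from 5795690 to 5802672 in GRCm38, also called mm10. Drop-seq primes on runs of A, so the ends of the transcripts bear on how each RNA is counted. The longest annotated transcript of Malat1, of 6983 bases, has 1 run of at least 8 A, 12 long. The run lies ahead of a tRNA-like element that is cut off the nascent RNA, and the annotated transcript goes on past that element. Of 40384 genes with a transcript of 500 bases or more, 23.8% have such a run in their longest one, counted on the transcript strand. The run is in capitals in the stretch from base 6614 to 6755, shown because it lies within the most abundant RNA of the set.
Malat1: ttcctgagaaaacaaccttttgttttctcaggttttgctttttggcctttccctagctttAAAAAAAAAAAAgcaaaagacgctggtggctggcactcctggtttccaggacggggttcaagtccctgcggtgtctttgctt
Whether reads began at this run was not tested.

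The last 60 bases of the transcripts (the longest of each gene, but for Neat1 its short isoform) set Gm26917 apart from the others. The hexamer AATAAA, the signal that precedes cleavage and polyadenylation, is in capitals. It was searched on the transcript strand only, and 40.6% of the longest transcripts of the 40384 genes hold it there. The Malat1 bases are 6924 to 6983 of the annotated transcript, past the tRNA-like element that is cut off the nascent RNA.
Malat1: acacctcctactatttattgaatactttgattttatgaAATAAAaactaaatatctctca
Neat1: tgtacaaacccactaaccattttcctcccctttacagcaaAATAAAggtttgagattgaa
H19: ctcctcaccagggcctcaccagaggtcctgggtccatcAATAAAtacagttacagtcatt
Meg3: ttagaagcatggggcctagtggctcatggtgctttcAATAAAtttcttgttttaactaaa
Gm26917: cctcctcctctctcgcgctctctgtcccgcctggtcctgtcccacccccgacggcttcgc
Gm26917 is the one of the 5 without the hexamer, which says only that these letters are not in its last 60 bases. Gm26917 also holds no run of 8 A, and its longest transcript is 69.1% G and C, where the median over those genes is 47.1%.

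Malat1 was found in nearly every barcode, from 92.5% in FVIO-MHT 3 to 98.8% in FVIO-MHT 1. With every barcode thinned to 200 UMIs the shares were 95.5%, 82.3% and 76.2% in FVIO-MHT 1, 2 and 3 and 93.4%, 94.7% and 90.2% in PBS 1, 2 and 3. Per barcode, the median share of UMIs that were Malat1 was 1.90%, 1.12% and 0.785% against 2.15%, 2.97% and 2.29%. Barcodes with at least a 10% share numbered 5, 7 and 0 against 17, 119 and 14. PBS 2 thus held most of the barcodes dominated by Malat1.

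Among cell classes, fibroblast-like barcodes, which carry collagen genes, held more Malat1 than tumour epithelial-like barcodes. The fibroblast-like level was 22149 and 15967 CPM in FVIO-MHT 2 and 3 and 78765 and 39083 CPM in PBS 2 and 3. The tumour epithelial-like level was 10754 and 5830 CPM in FVIO-MHT 2 and 3 and 22138, 31068 and 26291 CPM in PBS 1, 2 and 3. The fibroblast-like value was the higher in 4 of 4 libraries that held at least 20 barcodes of both classes, and the log2 difference within libraries was 1.28 ± 0.23 (SE; edgeR quasi-likelihood test with library as a block, Benjamini-Hochberg adjusted p = 2.717e-06). In that contrast 15.5% of the 5720 genes tested were called higher and 9.48% lower. Without the library term the call ended (edgeR adjusted p = 0.1018).

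The order of class means of Malat1 ran from 38991 ± 28259 CPM in fibroblast-like barcodes (SD, n = 4 libraries) to 16920 ± 4054 CPM in T and NK-like barcodes (n = 4). Endothelial-like (32961 CPM, n = 2), neutrophil-like (24324 ± 11761, n = 3), macrophage/monocyte-like (23201 ± 10860, n = 6), skin-like (20058 ± 6383, n = 3) and tumour epithelial-like barcodes (19216 ± 10605, n = 5) lay between, and each neighbour in this order differed by less than the SD over libraries. T and NK-like barcodes lay below tumour epithelial-like ones in 3 of 4 libraries, by a log2 difference of −0.65 ± 0.24 (edgeR adjusted p = 0.03038, where 15.4% of genes were called lower and 10.6% higher), a call that ended in 6 of the alternatives, with adjusted p from 0.05013 to 0.483. These included leaving out FVIO-MHT 2 (−0.71), PBS 1 (−0.76), PBS 2 (−0.44) or PBS 3 (−0.41).

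The lower Malat1 of the FVIO-MHT libraries, which the members were chosen on, is described by class. In tumour epithelial-like and in fibroblast-like barcodes, with the values above, the highest FVIO-MHT value was under the lowest PBS value, an order also shown by 9.49% of the 7514 and 16% of the 1311 genes tested in these classes. Macrophage/monocyte-like barcodes, at 37639, 13899 and 10458 CPM in FVIO-MHT 1, 2 and 3 and 21218, 34415 and 21576 CPM in PBS 1, 2 and 3, overlapped, with FVIO-MHT 1 the highest of all. Without FVIO-MHT 1 their log2 difference went from −0.21 ± 0.60 to −1.08. The classes with 1 library in a group give values only. In neutrophil-like barcodes Malat1 stood at 19789 and 15506 CPM in FVIO-MHT 1 and 2 and 37677 CPM in PBS 1. In endothelial-like barcodes it stood at 14198 CPM in FVIO-MHT 3 and 51723 CPM in PBS 2. The fitted log2 difference was −1.79 ± 0.38 (SE) in tumour epithelial-like and −1.66 ± 0.62 in fibroblast-like barcodes, the latter −1.06 without PBS 2, and edgeR called 0 of 7514 and 0 of 1311 genes in these fits (percent called 0). The classes share their libraries and are not separate observations.

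Different clusters held most of the tumour epithelial-like class in each library, so Malat1 was also read within them. In tumour cluster 4, which held 351 of the 392 such barcodes of FVIO-MHT 3, Malat1 was 7099 and 5605 CPM in FVIO-MHT 2 and 3 and 12056 and 15648 CPM in PBS 1 and 2. In cluster 7, which held 510 of the 1019 in PBS 2, it was 14712 and 9860 CPM in FVIO-MHT 2 and 3 and 34264, 42884 and 33378 CPM in PBS 1, 2 and 3. In cluster 6 it was 11744 CPM in FVIO-MHT 2 and 22663 and 28619 CPM in PBS 1 and 2.

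**Figure D2:**
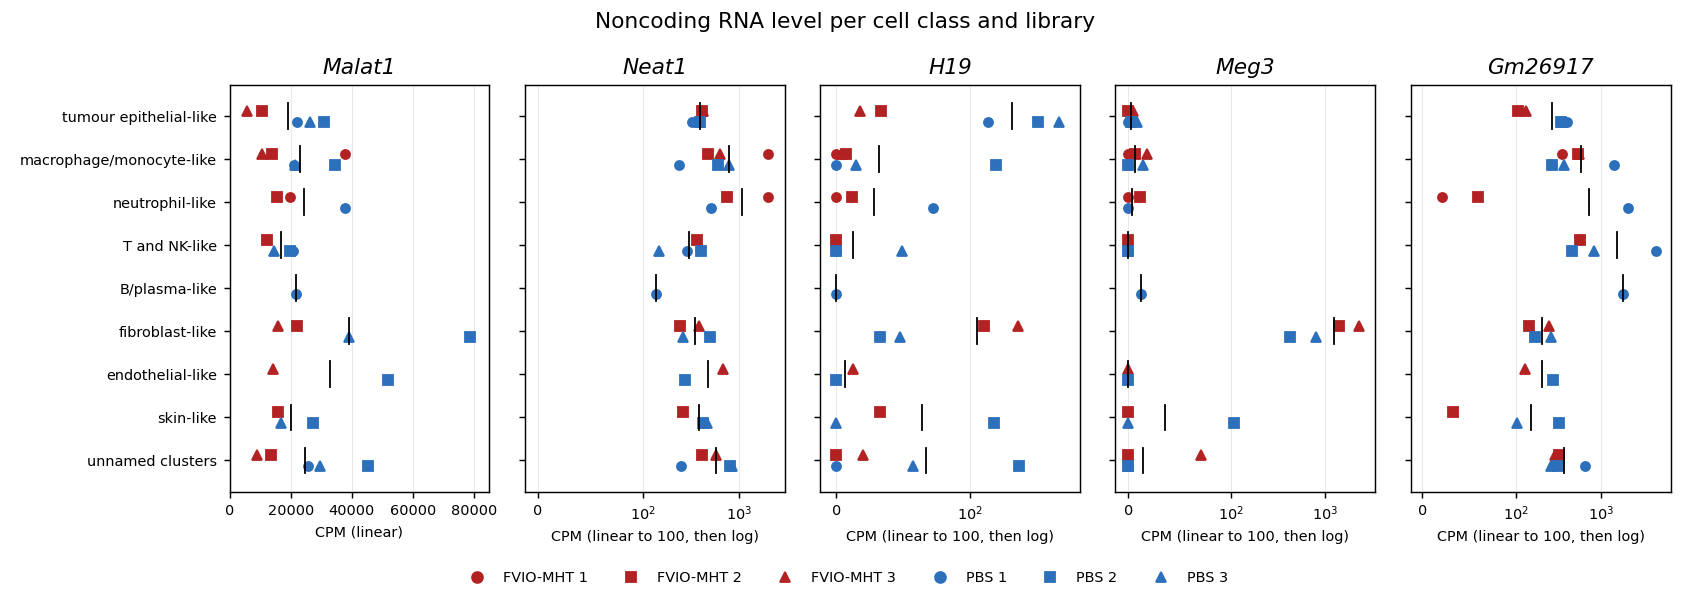
Each panel plots 1 RNA in CPM (x axis, linear for Malat1 and linear to 100 then logarithmic for the others) by cell class (y axis), with 1 symbol per library that held at least 20 barcodes of the class and a black line at the mean over libraries. Meg3 reaches 429 to 2328 CPM in fibroblast-like barcodes and at most 106 CPM in the other classes, a value of 2 UMIs in the skin-like barcodes of PBS 2, and Gm26917 of PBS 1 is the rightmost symbol in T and NK-like barcodes at 4425 CPM.

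Malat1 made up a larger part of shallow barcodes than of deep ones. Barcodes were binned from 200, 400, 800 and 1600 UMIs upwards, and in PBS 2 the level was 55797, 52555, 36902 and 24420 CPM in these bins, from shallow to deep. The same bins gave 30970, 27096, 23050 and 17242 CPM in PBS 1, and 10590, 10896, 9329 and 5794 CPM in FVIO-MHT 3. In FVIO-MHT 1 there was no fall, with 22116, 23269 and 24314 CPM in the 3 bins it filled. Split at each library's median depth, the deeper barcodes averaged 19292 CPM and the shallower ones 27932 CPM, lower in 6 of 6 libraries (two-sided exact sign-flip permutation p = 0.03125, the smallest that 6 libraries allow; adjusted over the 5 members p = 0.0521). The difference did not pass the adjusted threshold of 0.05. At the smallest p, passing depends on how many of the 5 members reach that p. Neat1 and Gm26917 also reached it, and H19 and Meg3 did not. Within tumour epithelial-like barcodes alone the direction was the same in 5 of 5 libraries (16390 against 29609 CPM), and within macrophage/monocyte-like ones in 5 of 6 (21635 against 28254 CPM; exact sign-flip permutation p = 0.15625).

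Tumour epithelial-like barcodes were also read within bins of depth, and what part depth has in the group difference was not tested. In the bin from 400 UMIs Malat1 stood at 12079 and 10210 CPM in FVIO-MHT 2 and 3 and 30401, 55685 and 43028 CPM in PBS 1, 2 and 3. From 800 UMIs the values were 13036 and 7499 CPM against 24362, 37082 and 27818 CPM, and at 1600 or more 9749 and 5064 CPM against 18276, 23322 and 20086 CPM.

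**Figure D3:**
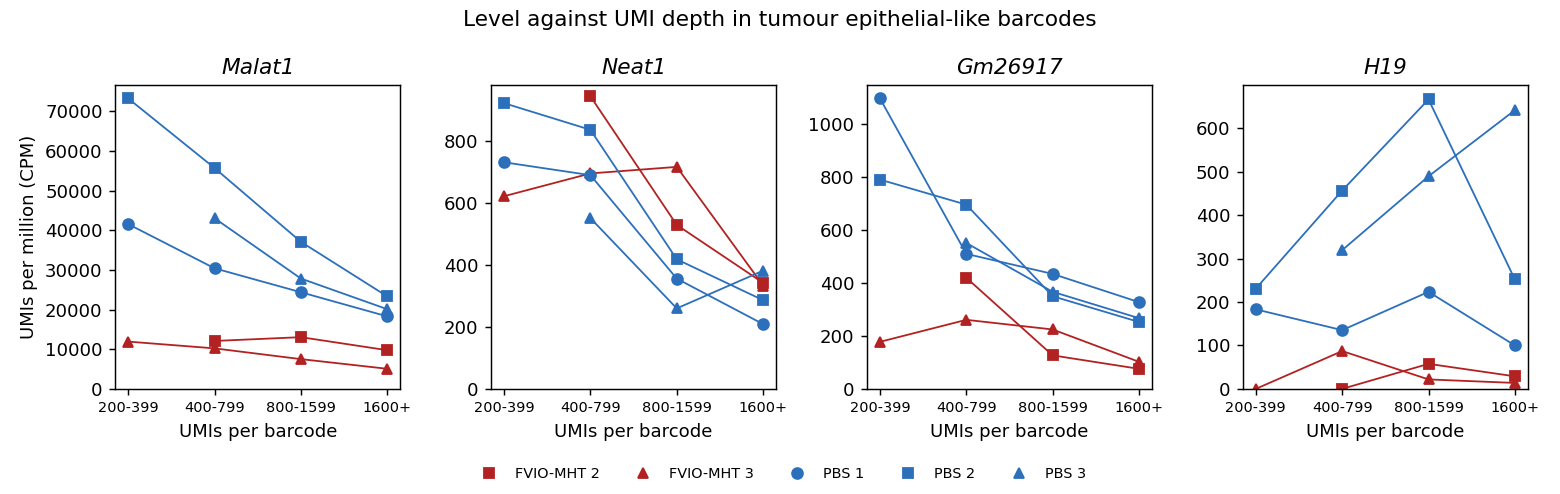
Level in CPM (y axis, linear from 0) against the UMIs per barcode (x axis, 4 bins) in tumour epithelial-like barcodes, 1 line per library, for bins of at least 20 barcodes. Malat1 of FVIO-MHT 2 and 3 lies below every PBS library in each bin they share, from 12079 and 10210 CPM in the bin from 400 UMIs to 9749 and 5064 CPM at 1600 or more, while the H19 lines have no common slope.

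Barcodes with at least 50 but under 200 genes, where free RNA and poorly captured cells mix, carried yet more Malat1. They stood at 24042, 16277 and 11970 CPM in FVIO-MHT 1, 2 and 3 and 40715, 60230 and 41733 CPM in PBS 1, 2 and 3. The kept barcodes averaged 21065 CPM and the low-gene barcodes 32495 CPM, lower in 6 of 6 libraries (two-sided exact sign-flip permutation p = 0.03125, adjusted over the 5 members p = 0.117).

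Neat1 (ENSMUSG00000092274) lies on the same strand of chromosome 19, from 5824708 to 5845478, and its longest transcript runs 20771 bases in 1 exon. Its hexamer above ends the short isoform, of 3004 bases, and the deposited counts do not separate the isoforms. The highest class means of Neat1 were those of neutrophil-like (1092 ± 812 CPM, SD, n = 3) and macrophage/monocyte-like barcodes (798 ± 630 CPM, n = 6), and both were raised by FVIO-MHT 1. Neutrophil-like barcodes held 2019 and 749 CPM in FVIO-MHT 1 and 2 and 508 CPM in PBS 1, and macrophage/monocyte-like barcodes held 2027, 473 and 640 CPM in FVIO-MHT 1, 2 and 3 and 238, 614 and 799 CPM in PBS 1, 2 and 3. FVIO-MHT 1 was the highest library in both classes. The order did not hold in each library: in FVIO-MHT 3 endothelial-like barcodes, at 692 CPM, lay above macrophage/monocyte-like ones, and in PBS 1 tumour epithelial-like barcodes, at 323 CPM, did. With barcodes thinned to 200 UMIs, 29.8% of its neutrophil-like barcodes had a Neat1 UMI, against 11.9% in FVIO-MHT 2 and 12.3% in PBS 1.

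Tumour epithelial-like barcodes varied little in Neat1. The values were 412 and 423 CPM in FVIO-MHT 2 and 3 and 323, 391 and 396 CPM in PBS 1, 2 and 3, a mean of 389 ± 38.9 CPM (SD, n = 5). Both FVIO-MHT values lay above the PBS values, as for 17.2% of the genes tested, but by little: the log2 difference was 0.08 ± 0.29 (SE), and it was −0.04 without PBS 1. Beside it stands the −1.79 of its neighbour Malat1 in the same barcodes. Neutrophil-like barcodes exceeded macrophage/monocyte-like ones by 0.90 ± 0.33 (log2 ± SE, edgeR adjusted p = 0.03961, higher in 2 of 3 libraries, 11.8% of genes called higher and 9.72% lower). That call ended in 8 of the alternatives, with adjusted p from 0.0712 to 0.755, among them leaving out FVIO-MHT 1 (0.80), FVIO-MHT 2 (0.40), FVIO-MHT 3 (0.72), PBS 2 (0.85) or PBS 3 (0.85).

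The other classes held less Neat1 by their means, 482 CPM in endothelial-like (n = 2), 383 ± 106 in skin-like (n = 3), 346 ± 118 in fibroblast-like (n = 4) and 302 ± 114 CPM in T and NK-like barcodes (SD, n = 4), and 136 CPM in the B/plasma-like barcodes of PBS 1. Where there was more than 1 library, neighbours in this order did not differ beyond their spread. Deep barcodes held less Neat1 than shallow ones, 634 against 890 CPM, in 6 of 6 libraries (two-sided exact sign-flip permutation p = 0.03125, adjusted over the 5 members p = 0.0521). Within macrophage/monocyte-like barcodes alone Neat1 was lower in the deeper barcodes of 6 of 6 libraries, at 649 against 1167 CPM (two-sided exact sign-flip permutation p = 0.03125, adjusted p = 0.156). In tumour epithelial-like barcodes it was lower in 5 of 5 libraries, at 313 against 662 CPM (exact sign-flip permutation p = 0.0625, the smallest that 5 libraries allow). Low-gene barcodes averaged 846 CPM and kept barcodes 694 CPM, lower in 5 of 6 libraries (exact sign-flip permutation p = 0.3125).

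H19 (ENSMUSG00000000031) lies on the minus strand of chromosome 7, from 142575529 to 142578143, and its longest transcript has 5 exons and 2286 bases. It is also the host of miR-675, whose hairpin is cut from an exon of 3 of its 7 transcripts, which is why both mature miRNAs are shown. They are from RefSeq (GRCm38.p6, minus strand, at chr7:142577112-142577133 and chr7:142577078-142577099), with the seed, bases 2 to 8, in capitals.
mmu-miR-675-5p: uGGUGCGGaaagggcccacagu
mmu-miR-675-3p: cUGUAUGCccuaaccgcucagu
The seeds of the pair differ, and these mature miRNAs, which have no poly(A) tail, are not measured by Drop-seq.

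H19 was an RNA of few barcodes. Tumour epithelial-like barcodes held 803 of its UMIs in all, and 9.40% of them had at least 1 (median depth 1149 UMIs). In T and NK-like barcodes, which should lack H19, the share was 0.264% (median depth 348 UMIs), and with barcodes thinned to 200 UMIs the shares were 3.64% and 0%, the latter allowing up to 0.792% at 3 counts of the total. In the 5 libraries with any H19, the top 1% of barcodes held between 43.6% and 80.0% of its UMIs, where for Malat1 the top 1% held between 6.18% and 10.1%.

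By library, tumour epithelial-like barcodes held 33.5 and 18.2 CPM of H19 in FVIO-MHT 2 and 3 (13 and 14 UMIs) and 142, 369 and 549 CPM in PBS 1, 2 and 3 (81, 566 and 129 UMIs). FVIO-MHT was lower without overlap, as were 9.49% of the genes tested in this class, and the log2 difference was −3.92 ± 0.63 (SE). In PBS 3 a single barcode gave 51 of the 129 UMIs, and without it the level was 336 CPM. The 27 H19 UMIs of the treated tumour epithelial-like barcodes fell in 9 of 210 and 10 of 392 barcodes. Of these, 8 and 10 also carried Krt8, Krt18 or Epcam. The PBS UMIs fell in 27 of 434, 143 of 1019 and 20 of 168 barcodes, of which 19, 125 and 12 did so. Sums with this many empty barcodes cannot separate fewer H19-positive cells from less H19 in each.

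H19 was also read within the 3 tumour clusters that both groups filled, where the FVIO-MHT values rest on few UMIs. In cluster 4, H19 stood at 9.90 and 11.0 CPM in FVIO-MHT 2 and 3, from 1 and 8 UMIs, and 132 and 142 CPM in PBS 1 and 2. In cluster 6 it stood at 47.0 CPM in FVIO-MHT 2 and 143 and 420 CPM in PBS 1 and 2. In cluster 7 the values were 0 and 172 CPM in FVIO-MHT 2 and 3, from 0 and 3 UMIs, and 217, 652 and 659 CPM in PBS 1, 2 and 3. Cluster 7 also had H19 as its leading gene by fold although H19 took no part in the clustering, with Cp, the ferroxidase ceruloplasmin, and Tnnt2, a cardiac troponin, next. It held 724 barcodes, 510 of them from PBS 2.

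**Figure D4:**
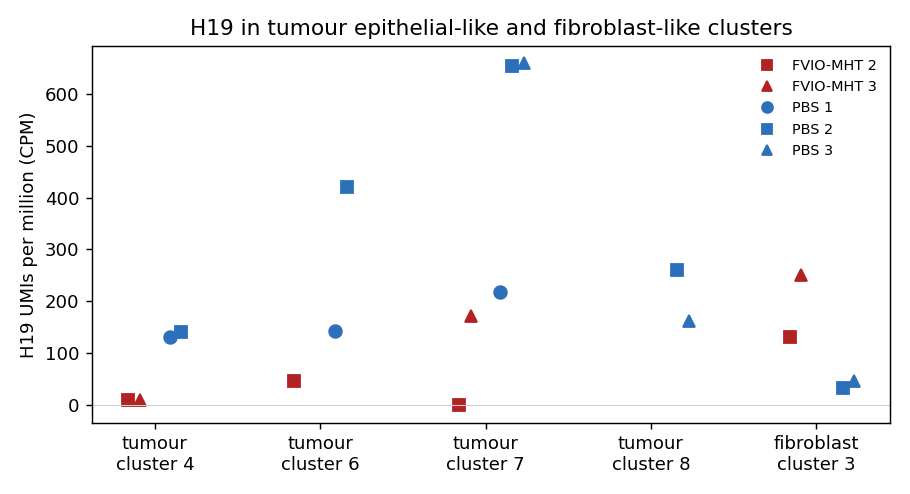
H19 level in CPM (y axis, linear) in 4 tumour epithelial-like clusters and the fibroblast-like cluster (x axis), 1 symbol per library with at least 20 barcodes in the cluster. Symbols reach 652 and 659 CPM for PBS 2 and 3 in cluster 7, and in the fibroblast-like cluster PBS stands at 33.0 and 47.5 CPM and FVIO-MHT at 132 and 251 CPM.

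Fibroblast-like barcodes showed the opposite order from few UMIs. They held 132 and 251 CPM of H19 in FVIO-MHT 2 and 3 (12 and 28 UMIs) and 33.0 and 47.5 CPM in PBS 2 and 3 (1 and 2 UMIs). In FVIO-MHT 3 the 28 UMIs lay in 12 barcodes, all 12 of which carried a collagen UMI and 11 a Meg3 UMI, while 3 carried a keratin or Epcam. In FVIO-MHT 2, 8 of the 12 UMIs came from 1 barcode, and without it the level was 44.2 CPM, below the 47.5 CPM of PBS 3. In a finer clustering (resolution 2), all 12 UMIs of FVIO-MHT 2 fell in 12 pericyte/smooth muscle-like barcodes, at 995 CPM, and all 28 of FVIO-MHT 3 in fibroblast-like ones, at 321 CPM.

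Macrophage/monocyte-like barcodes held 0, 7.17 and 4.51 CPM of H19 in FVIO-MHT 1, 2 and 3 and 0, 166 and 14.5 CPM in PBS 1, 2 and 3. The 166 CPM of PBS 2 came from 26 UMIs, 23 of them in 1 barcode, and without that barcode it was 19.3 CPM. The class lay below tumour epithelial-like barcodes in 5 of 5 libraries by −2.13 ± 0.48 (log2 ± SE, edgeR adjusted p = 9.648e-05), where 19.8% of genes were called lower and 20.9% higher. The pooled H19 level of tumour epithelial-like barcodes was 38.7 times that of T and NK-like ones, which rests on 1 UMI in the latter (95% interval of counting error 6.93 to 1532), lower in 4 of 4 libraries (edgeR adjusted p = 3.026e-05). Fibroblast-like and tumour epithelial-like barcodes differed by 0.60 ± 0.49 (edgeR adjusted p = 0.417), each the higher in 2 of 4 libraries, and without PBS 3 by 1.62 (edgeR adjusted p = 0.006284). Endothelial-like barcodes held 1 H19 UMI, and fibroblast-like barcodes 20.9 times their level (3.55 to 843), lower in 2 of 2 libraries (edgeR adjusted p = 0.008749, 4.27% of genes called lower and 3.15% higher). This call ended without FVIO-MHT 3 (edgeR adjusted p = 0.1236), PBS 1 (0.0599) or PBS 2 (0.09693) and without the library term (0.2875).

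Over whole libraries H19 was higher in deeper barcodes, but not within the tumour epithelial-like class. The deeper barcodes averaged 145 CPM and the shallower ones 72.8 CPM, higher in 5 libraries and at 0 in both in FVIO-MHT 1 (two-sided exact sign-flip permutation p = 0.0625, adjusted over the 5 members p = 0.0781). Within tumour epithelial-like barcodes alone the values were 220 and 231 CPM, lower in 4 of 5 libraries (exact sign-flip permutation p = 0.75). Tumour epithelial-like barcodes, at a median of 1149 UMIs, were deeper than every other class pooled over libraries (339 to 913 UMIs), so depth and class move together over whole libraries. Kept barcodes averaged 130 CPM and low-gene barcodes 87.7 CPM, higher in 5 libraries (exact sign-flip permutation p = 0.0625, adjusted over the 5 members p = 0.117). Igf2, the imprinted growth factor gene beside H19, had between 0 and 2 UMIs in the kept barcodes of any library.

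Meg3 (ENSMUSG00000021268) lies on the plus strand of chromosome 12, from 109541001 to 109571726, and its longest transcript has 5 exons, 14548 bases and 7 runs of at least 8 A, the longest of 16. In the main clustering (resolution 1), which had no pericyte/smooth muscle-like cluster, most Meg3 UMIs lay in fibroblast-like barcodes. These held 452 Meg3 UMIs, at 1436 and 2328 CPM in FVIO-MHT 2 and 3 and 429 and 807 CPM in PBS 2 and 3. They gave 97.8% and 84.4% of all Meg3 UMIs of FVIO-MHT 2 and 3 and 65.0% and 91.9% of those of PBS 2 and 3. In FVIO-MHT 1 all 8 Meg3 UMIs lay in its 3 fibroblast-like barcodes, and in PBS 1 6 of 7 lay in 9 such barcodes.

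A Meg3 UMI was found in 54.1% of fibroblast-like barcodes (median depth 641.5 UMIs) and in 0.405% of tumour epithelial-like ones (median depth 1149 UMIs). Thinned to 200 UMIs the shares were 24.7% and 0.0900%. The log2 difference within libraries was 8.13 ± 0.48 (SE), higher in 4 of 4 libraries (edgeR adjusted p = 1.777e-33), and the call held under each alternative run. Pooled, the ratio was 506 (95% interval of counting error 280.2 to 1021), from 452 and 11 UMIs. Endothelial-like and T and NK-like barcodes held 0 Meg3 UMIs among 180 and 379 barcodes, so that fibroblast-like barcodes were at least 73.1-fold and 89.5-fold higher, taking 3 counts over the class. Endothelial-like barcodes were the lower in 2 of 2 libraries (edgeR adjusted p = 3.182e-12). At resolution 2, the 231 fibroblast-like barcodes pooled at 1543 CPM and the 65 pericyte/smooth muscle-like ones at 1860 CPM. High Meg3 was thus not particular to fibroblast-like barcodes.

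Within fibroblast-like barcodes both FVIO-MHT libraries lay above both PBS libraries, as for 16.9% of the genes tested there, with a Meg3 UMI in 52.9% and 64.8% of barcodes against 22.6% and 40.0%. The log2 difference was 1.53 ± 0.62 (SE), and 2.11 without PBS 3. Fibroblast-like barcodes numbered 3, 68 and 145 of 332, 1049 and 2325 kept barcodes in FVIO-MHT 1, 2 and 3. In PBS 1, 2 and 3 they numbered 9, 31 and 40 of 1080, 1462 and 482, the largest share being that of PBS 3. The whole-library level of Meg3 depends on this share and on its level in such barcodes, and their parts were not tested. Depth showed no common direction, at 85.3 CPM in deeper and 58.6 CPM in shallower barcodes, with 2 libraries higher and 4 lower (exact sign-flip permutation p = 0.53125). Kept barcodes averaged 77.7 CPM and low-gene barcodes 43.6 CPM, higher in 5 of 6 libraries (exact sign-flip permutation p = 0.09375, adjusted p = 0.117). Of the genes of its imprinted cluster, Dlk1 had between 0 and 3 UMIs and Mirg between 0 and 4 in the kept barcodes of any library.

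Gm26917 (ENSMUSG00000097971) lies on the plus strand of chromosome 17, from 39843013 to 39846341. The annotation places a ribosomal RNA gene on the other strand 12 bases after it, from 39846353 to 39848827, and within that Gm42418 and AY036118, RNAs known to overlap ribosomal RNA sequence. The longest Gm26917 transcript shares none of its 3299 stretches of 31 bases with an annotated transcript of another gene, each read on its own strand. Matches to the reverse complement were not searched. No source used here gives the strand used in counting.

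PBS 1 held the highest Gm26917 level in T and NK-like, neutrophil-like and macrophage/monocyte-like barcodes. Its T and NK-like barcodes held 4425 CPM (428 UMIs), against 569 CPM in FVIO-MHT 2, 452 CPM in PBS 2 and 836 CPM in PBS 3. Its neutrophil-like barcodes held 2069 CPM, against 20.9 and 59.0 CPM in FVIO-MHT 1 and 2, with PBS 1 as the lone control library of that class. Its macrophage/monocyte-like barcodes held 1430 CPM, against 347, 530 and 559 CPM in FVIO-MHT 1, 2 and 3 and 262 and 363 CPM in PBS 2 and 3. In these 3 classes the high PBS mean was thus set by 1 library. B/plasma-like barcodes, 169 of 171 of which came from PBS 1, held 1848 CPM there, with no other library to compare.

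In tumour epithelial-like barcodes PBS 1 stood close to the other PBS libraries. They held 106 and 132 CPM of Gm26917 in FVIO-MHT 2 and 3 and 403, 335 and 345 CPM in PBS 1, 2 and 3, with a log2 difference of −1.68 ± 0.31 (SE). FVIO-MHT was lower without overlap, as for 9.49% of the genes tested there. Thinned to 200 UMIs, 1.43% and 2.55% of these barcodes had a Gm26917 UMI in FVIO-MHT 2 and 3 and 8.76%, 7.65% and 7.74% in PBS 1, 2 and 3. In fibroblast-like barcodes the groups overlapped, at 143 and 242 CPM in FVIO-MHT 2 and 3 and 165 and 261 CPM in PBS 2 and 3. In macrophage/monocyte-like barcodes the log2 difference was −0.40 ± 0.60 and turned to 0.69 without PBS 1, and in T and NK-like barcodes −1.77 turned to 0.02.

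Between classes, macrophage/monocyte-like barcodes held more Gm26917 than tumour epithelial-like ones by 1.28 ± 0.32 (log2 ± SE), higher in 4 of 5 libraries (edgeR adjusted p = 0.0003837, and 0.1613 without the library term). T and NK-like barcodes did so by 1.61 ± 0.37, higher in 4 of 4 libraries (edgeR adjusted p = 0.00021). This call ended without PBS 1, at 1.04 (edgeR adjusted p = 0.07532), and at the finer clustering (edgeR adjusted p = 0.6617). Neutrophil-like and macrophage/monocyte-like barcodes differed by −0.94 ± 0.43 (edgeR adjusted p = 0.1056). The difference was called without PBS 1, at −2.28 (edgeR adjusted p = 0.003698), without PBS 2, at −1.12 (0.03566), without PBS 3, at −1.20 (0.02988), and with a minimum of 10 barcodes per class, at −1.15 (0.04767). The class means were 1570 ± 1910 CPM in T and NK-like (SD, n = 4), 582 ± 431 in macrophage/monocyte-like (n = 6) and 264 ± 135 CPM in tumour epithelial-like barcodes (n = 5), and neighbours in this order did not differ beyond their SD.

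Gm26917 was the member with the steepest rise towards shallow barcodes in PBS 1, at 362, 557, 1380 and 3844 CPM in the bins from 1600, 800, 400 and 200 UMIs. The shallower barcodes averaged 842 CPM over libraries and the deeper ones 258 CPM, lower in 6 of 6 libraries (two-sided exact sign-flip permutation p = 0.03125, adjusted over the 5 members p = 0.0521). Without PBS 1 the averages were 354 and 195 CPM. Within tumour epithelial-like barcodes they were 432 and 218 CPM, lower in 5 of 5 libraries (exact sign-flip permutation p = 0.0625, the smallest that 5 libraries allow). Within macrophage/monocyte-like barcodes they were 644 and 555 CPM, lower in 4 and higher in 2 of 6 libraries (exact sign-flip permutation p = 0.3125). Low-gene barcodes of PBS 1 stood at 6095 CPM, above the level of each of its kept classes. In the other libraries they stood at 28.9, 192 and 446 CPM in FVIO-MHT 1, 2 and 3 and 795 and 464 CPM in PBS 2 and 3, and kept barcodes lay lower in 5 of 6 libraries (exact sign-flip permutation p = 0.09375, adjusted p = 0.117). What part free RNA had in the immune values of PBS 1 was not tested.

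The neighbouring Gm42418 shared part of the order of Gm26917 between libraries, with PBS 1 the highest and PBS 3 the lowest of the PBS group over kept barcodes, but PBS 1 was not the highest library and was the lowest in neutrophil-like barcodes. It held 2279, 2028 and 2989 CPM in FVIO-MHT 1, 2 and 3 and 2936, 2079 and 1659 CPM in PBS 1, 2 and 3. In T and NK-like barcodes Gm42418 stood at 4735 CPM in PBS 1 and 2845, 1582 and 2310 CPM in FVIO-MHT 2, PBS 2 and PBS 3, and in neutrophil-like barcodes at 1670 CPM in PBS 1 and 1797 and 1741 CPM in FVIO-MHT 1 and 2. In low-gene barcodes of PBS 1 it stood at 4531 CPM, within the range of 2570 to 6395 CPM of the other libraries. AY036118 was listed at 0 in all 6.

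The members did not move as a group. Over 28 sums by class and library, the Pearson correlation of log2(CPM + 50) between pairs of members ran from −0.40 (Neat1 and Gm26917) to 0.35 (H19 and Meg3). The sums share libraries and classes, so these values are descriptive. Among 7007 genes, those closest to Meg3 were Gpx3, an extracellular glutathione peroxidase (r = 0.97), Col6a3, a collagen VI chain, Mfap5, a microfibril protein, Serpinf1, a secreted antiangiogenic factor, and Itm2a (0.96). Those closest to Neat1 were Alpk1, Pfkfb3, an activator of glycolysis (both 0.73), Nlrp3, the inflammasome sensor, Dtx4, and Bnip3, a hypoxia-induced mitophagy gene (0.71).

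H19 was closest to Tgfb3, a TGF-beta ligand (0.75), Aaed1, Cp (0.72), Myc, the proliferation factor (0.71), and Ccbe1. Gm26917 was closest to Ccr7, the lymph-node homing receptor (0.85), Sh3kbp1 (0.84), Rbm39, a splicing factor, Tob2, and Satb1, a chromatin organiser of T cells (0.71). Ccr7 and Satb1 were also leading genes of the T and NK-like cluster, with 238 of its 379 barcodes from PBS 1. The highest Gm26917 values were those of PBS 1, and the correlations were not computed without it. The nearest genes to Malat1 reached lower values, with Filip1l at 0.61, Atrx, a chromatin remodeller, at 0.58, and Gigyf2, Golgb1 and Ginm1 down to 0.55.

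The wider lists to which the members belong were read in the same fits. Between FVIO-MHT and PBS over whole libraries, edgeR called none of the members of these lists, where percent called over all genes was also 0. The median log2 difference was −0.61 over 12 tested nuclear noncoding RNAs (5 positive), −0.28 over 14 imprinted genes (4 positive), −0.04 over 25 paraspeckle proteins (11 positive) and −0.07 over 30 nuclear speckle proteins (10 positive), beside −0.04 over all genes (4045 of 8603 positive). It was 0.33 over 20 hypoxia genes (12 positive), but −0.65 over 19 of them within tumour epithelial-like barcodes (1 positive, beside a median of 0.01 over all genes there). It was −0.62 over 7 mitochondrially encoded genes (2 positive) and −0.30 over 2 ribosomal RNA-derived features (Lars2 and Gm42418, 1 positive). Genes beside Malat1 and Neat1 on chromosome 19 had a median of 0.39 (10 tested), those beside H19 −0.37 (6 tested) and those beside Meg3 0.23 (2 tested, Wars and Yy1).

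Among the genes with the lowest p of each list, none of which was called, Pfkfb3 and Bnip3, the hypoxia genes closest to Neat1 above, differed by 3.66 ± 1.30 and 2.31 ± 1.23 (log2 ± SE), and Hk2, a hexokinase, by 1.00 ± 0.59. Prpf4b and Pnn, a splicing kinase and a splicing cofactor of nuclear speckles, differed by −1.40 ± 0.47 and −1.09 ± 0.56, and the paraspeckle proteins Matr3 and Pspc1 by −0.67 ± 0.46 and 0.45 ± 0.43. Of the genes beside Malat1 and Neat1, Capn1, a calpain protease, differed by 1.04 ± 0.48, and beside H19 the lysosomal protease Ctsd by 1.51 ± 0.61 and Syt8 by −0.80 ± 0.55. Among host genes of small nucleolar RNAs, Snhg9 differed by 1.92 ± 0.84 and Snhg6 by −1.09 ± 0.51. All these differences include FVIO-MHT 1, where 265 of 332 barcodes were neutrophil-like. Between classes, Pfkfb3 was higher in macrophage/monocyte-like than in tumour epithelial-like barcodes, by 3.14 ± 0.40. Pfkfb3, Bnip3 and Snhg9 were higher in neutrophil-like than in macrophage/monocyte-like barcodes, by 1.17 ± 0.44, 1.42 ± 0.40 and 1.63 ± 0.46. What part the mix of classes has in the group differences was not tested.

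Kcnq1ot1, the imprinted antisense RNA of the Kcnq1 gene on chromosome 7, had the lowest p of the imprinted genes, at −1.27 ± 0.61 (log2 ± SE, not called). It held 11.0, 119 and 142 CPM in FVIO-MHT 1, 2 and 3 and 269, 235 and 191 CPM in PBS 1, 2 and 3, the value of FVIO-MHT 1 resting on 2 UMIs. FVIO-MHT was lower without overlap, as for 9.46% of all genes. Without strand its reads cannot be told apart from those of Kcnq1.

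Other imprinted and nuclear RNAs were also read between classes. In fibroblast-like against tumour epithelial-like barcodes, 6 of 16 tested imprinted genes were called higher by edgeR and 0 lower, and 3 of 13 nuclear noncoding RNAs higher and 1 lower, beside 15.5% of all genes higher and 9.48% lower. These genes took part in the clustering, so the counts are descriptive. Peg3, a paternally expressed zinc finger gene, averaged 112 ± 78.1 CPM in fibroblast-like barcodes (SD, n = 4, 22 UMIs) with 1 UMI in all tumour epithelial-like barcodes, and Plagl1, another imprinted zinc finger gene, 90.7 ± 45.5 against 1.37 ± 1.74 CPM (n = 4 and 5). Grb10, Mest, Cd81 and Gatm completed the 6. Mest rested on FVIO-MHT 3, at 358 CPM of a mean of 95.5 ± 176 CPM.

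Xist, the RNA that silences an X chromosome in female cells, was low in tumour epithelial-like barcodes, at 11.8 ± 4.64 CPM (SD, n = 5), and stood at 618 ± 148 CPM in fibroblast-like (n = 4) and 758 ± 308 CPM in macrophage/monocyte-like barcodes (n = 6). Its antisense partner Tsix followed, at 1.37, 97.0 and 121 CPM, and without strand Xist and Tsix cannot be told apart. Pvt1, a noncoding RNA beside Myc, was called lower in macrophage/monocyte-like barcodes, at 14.6 ± 16.5 CPM (SD, n = 6) against 61.6 ± 18.4 CPM in tumour epithelial-like ones (n = 5). Among the partners of Neat1, 5 of 19 paraspeckle proteins were called lower and 0 higher in macrophage/monocyte-like than in tumour epithelial-like barcodes (19.8% and 20.9% of all genes). In neutrophil-like against macrophage/monocyte-like barcodes, 7 of 30 nuclear speckle proteins were called higher and 0 lower (11.8% and 9.72% of all genes).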

How the data were processed

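Drop-seq UMI counts of 6 libraries (3 FVIO-MHT, 3 PBS) were used as deposited. The authors made these whole-number counts with STAR 2.7.2b on mm10, per the submitters' processing notes. For the counter, annotation, strand and barcode choice, no source used here gives an answer. Each matrix listed 5000 barcodes. Dropping 65 rows that repeated a symbol with identical counts left 27933 genes, of which 27624 identifiers matched GENCODE M21.

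The members and gene lists were chosen with earlier results of these data known. Barcodes with 200 or more genes were kept. Counts were scaled and log-transformed, and 2000 variable genes without the 5 members, 30 components, 15 neighbours and Leiden resolution 1 (scanpy 1.11.5) gave 16 clusters, named from fixed markers. Naming needed at least 3 markers, and this rule was set after seeing the data. Scrublet called 39 doublets (0.579%), which were left in.

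UMIs were summed per library, or per class and library with at least 20 barcodes, and fitted with edgeR 4.0.16 (quasi-likelihood, TMM, filterByExpr, Benjamini-Hochberg adjusted p under 0.05; R 4.3.3). All 5 members passed the filter over whole libraries. Class contrasts had library as a block and 5720 genes. Depth and low-gene comparisons used two-sided exact sign-flip permutation tests over libraries, adjusted over 5 members. DESeq2 1.42.0, other filters, clusterings, gene minimums and leaving out each library were alternatives. The replicate numbers, checked through deviations from group means, did not pair the samples. Scripts were tested on simulated data. Intervals and 3-count floors cover counting error only, at the 95% level.

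The 5 members were always named. From each list, genes past the threshold over whole libraries, or else the 3 with the lowest p, were named, and for each member the 5 genes with the highest correlation over sums (100 or more UMIs). The list genes named between classes were chosen after their values were seen.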

Additional observations from a re-analysis of the deposited data

Results flagged for a closer look

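H19 differed between FVIO-MHT and PBS in opposite directions in 2 cell classes, with every library on the same side within each class as clustered at resolution 1. The FVIO-MHT mean lay above the PBS mean by 150.9 CPM in fibroblast-like barcodes, and the difference was −327.72 CPM in tumour epithelial-like barcodes. The difference between the classes was not tested. The fibroblast-like value rests on 12 and 28 UMIs in FVIO-MHT 2 and 3 and on 1 and 2 UMIs in PBS 2 and 3, and 8 of the 12 came from 1 barcode, without which FVIO-MHT 2 stood at 44.2 CPM, below the 47.5 CPM of PBS 3. In the clustering at resolution 2 the order in fibroblast-like barcodes did not hold either, at 0 and 321 CPM in FVIO-MHT 2 and 3 and 37.9 and 51.2 CPM in PBS 2 and 3.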

How the results depend on the processing

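Over whole libraries edgeR called 0 of 8603 genes, DESeq2 185, and edgeR without a filter on low counts 2. In macrophage/monocyte-like barcodes 0 became 2 with DESeq2 and 24 without the filter, and ran from 0 to 2 with 1 library left out. In tumour epithelial-like barcodes 0 became 29 and 158, and ran from 0 to 242, reached without FVIO-MHT 2. Without PBS 1 it was 2. The members were chosen on this contrast, so counts of their calls describe the processing and do not test the members. Of the members, over whole libraries 0 were called and DESeq2 called 1, beside 185 of all 8603 genes. Within the 2 classes 0 became 3 with DESeq2 and 3 without the filter, all in tumour epithelial-like barcodes. These stand beside 29 of 7514 and 158 of 14848 genes called there. Without PBS 1 it was 1 member, beside 2 of 7185 genes. Without FVIO-MHT 2 the log2 differences in these barcodes were −4.30 for H19, −2.24 for Malat1 and −1.50 for Gm26917. Without FVIO-MHT 3 they were −3.52, −1.45 and −1.92. Between classes 10 of 25 member contrasts were called, and 6 without the library term. Of all 5720 genes, 1426, 2327 and 1489 were called in fibroblast-like, macrophage/monocyte-like and T and NK-like against tumour epithelial-like barcodes. Without the library term these were 1021, 1943 and 1228. Neutrophil-like against macrophage/monocyte-like barcodes gave 1229 with the term and 1370 without it, and endothelial-like against fibroblast-like barcodes 424 and 344. Depth and low-gene comparisons called 0 members under each alternative, and with 1 library left out they cannot go below p = 0.0625 (exact sign-flip permutation). With the replicate block, 0 genes were called over whole libraries, in tumour epithelial-like and in macrophage/monocyte-like barcodes, and the same-numbered samples' deviations correlated by 0.151, 0.0255 and −0.0765. Of 241 refitted group differences of members, 13 had another sign. None of these was H19 or Gm26917 over whole libraries or in tumour epithelial-like barcodes. H19 did not pass the filter in the main fits of the other classes, so its order in fibroblast-like barcodes lies outside this count. Leaving out the barcodes that PBS 2 and 3 share, or the unnamed clusters, was chosen after seeing the data. Depth limits H19 and Meg3 most, since several class values rest on 0 to 3 UMIs.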
